A study of Mus musculus with 6 samples.

Results

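The genes described here are 34 genes of granulocytes and their granules, chosen by symbol from a fixed list, and all 34 had exactly 1 row among the 47561 rows of the count tables. The RNA came from LT-HSCs, long-term hematopoietic stem cells, a rare marrow population able to self-renew for life and to form every blood lineage. They were sorted from the bone marrow of mice labelled control (genotype WT, 3 libraries) and of mice titled Piezo1 KO (3 libraries). Piezo1 encodes a cation channel opened by mechanical force. For KO replicates 2 and 3 the genotype label reads Piezo2 and Piezo3 in place of Piezo1, and the groups follow the titles. The labels give no age, no allele or Cre driver, no sorting gate and no statement that separate mice gave the libraries, and every p-value then covers only variation among these samples, possibly technical variation.

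Neutrophils arise from granulocyte-monocyte progenitors through a series of stages, and each stage fills its own class of granule. Primary (azurophil) granules form first and hold myeloperoxidase and serine proteases. Secondary (specific) granules follow, with lactoferrin and cathelicidin, and tertiary (gelatinase) granules come last. The factor C/EBP alpha is needed to enter the lineage and C/EBP epsilon for the secondary granule genes. Stem cells can carry low levels of some lineage transcripts, which is called priming, and a bulk library also holds the RNA of any other cell in the sort. In bulk RNA, fewer cells of a type and less RNA per cell cannot be told apart.

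The members were grouped by role into progenitor factors (4 C/EBP genes and Ms4a3), primary granule genes (4), secondary granule genes (9), tertiary granule and late genes (4), cytosolic and shared granule proteins (4), surface molecules (4) and subunits of the NADPH oxidase (4). The promoters of 3 primary and 3 secondary granule genes are shown because the class sums differed between libraries, the primary sum being nearly all Prtn3. Each is the 300-base window from 250 bases before to 50 bases after the RefSeq start on GRCm38.p6, read 5′ to 3′ on the gene's strand. Capitals mark the letters TTGCNNAA, the core of a C/EBP site, or GAGGAA, the core of a PU.1 site, on either strand. The primary granule windows are Mpo at chr11:87793534-87793833 (plus strand), Elane at chr10:79886062-79886361 (plus) and Prtn3 at chr10:79879417-79879716 (plus). The secondary granule windows are Ltf at chr9:111019042-111019341 (plus), Ngp at chr9:110419558-110419857 (plus) and Lcn2 at chr2:32387690-32387989 (minus).
Mpo: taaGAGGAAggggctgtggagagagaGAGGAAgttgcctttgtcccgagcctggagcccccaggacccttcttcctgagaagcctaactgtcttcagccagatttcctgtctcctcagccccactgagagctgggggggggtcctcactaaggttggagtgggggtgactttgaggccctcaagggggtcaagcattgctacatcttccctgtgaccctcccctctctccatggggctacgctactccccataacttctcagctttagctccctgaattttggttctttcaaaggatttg
Elane: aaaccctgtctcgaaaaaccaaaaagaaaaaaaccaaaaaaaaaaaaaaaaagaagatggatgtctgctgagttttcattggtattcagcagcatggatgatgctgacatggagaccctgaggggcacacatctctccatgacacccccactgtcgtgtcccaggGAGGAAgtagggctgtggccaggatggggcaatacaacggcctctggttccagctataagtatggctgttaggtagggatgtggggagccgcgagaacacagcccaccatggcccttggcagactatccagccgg
Prtn3: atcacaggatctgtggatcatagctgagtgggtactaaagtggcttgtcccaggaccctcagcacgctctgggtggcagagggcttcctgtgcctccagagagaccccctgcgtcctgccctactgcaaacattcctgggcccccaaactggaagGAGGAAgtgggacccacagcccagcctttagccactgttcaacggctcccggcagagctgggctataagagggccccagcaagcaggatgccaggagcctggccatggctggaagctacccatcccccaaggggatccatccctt
Ltf: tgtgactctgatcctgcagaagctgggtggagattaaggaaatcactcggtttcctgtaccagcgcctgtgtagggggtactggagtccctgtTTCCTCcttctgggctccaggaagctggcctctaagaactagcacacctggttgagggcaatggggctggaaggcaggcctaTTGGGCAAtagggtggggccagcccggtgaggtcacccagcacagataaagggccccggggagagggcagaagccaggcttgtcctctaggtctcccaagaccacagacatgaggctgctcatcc
Ngp: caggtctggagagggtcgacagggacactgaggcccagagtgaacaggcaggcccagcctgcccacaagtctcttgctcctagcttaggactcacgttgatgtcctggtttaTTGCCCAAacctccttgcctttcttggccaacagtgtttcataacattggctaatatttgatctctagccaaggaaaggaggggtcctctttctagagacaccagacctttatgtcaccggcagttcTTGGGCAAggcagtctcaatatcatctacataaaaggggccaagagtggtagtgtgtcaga
Lcn2: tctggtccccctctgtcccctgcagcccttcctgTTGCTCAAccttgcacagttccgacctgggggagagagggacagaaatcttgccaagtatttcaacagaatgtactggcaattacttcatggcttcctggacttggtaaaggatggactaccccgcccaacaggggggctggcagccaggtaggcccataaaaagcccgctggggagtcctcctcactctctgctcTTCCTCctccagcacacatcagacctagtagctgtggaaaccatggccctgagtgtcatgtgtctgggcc

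RefSeq held such a window for 29 of the 34 members. The C/EBP letters stood in 11 of these (37.9%) and in 10.8% of 27025 promoter windows of the same length. By class they stood in 0 of 4 primary granule windows and in 5 of 8 secondary granule windows. The PU.1 letters stood in 17 of 29 members (58.6%) and in 28.3% of all windows, among them 4 of 4 primary and 4 of 8 secondary granule windows. In the printed windows Ngp holds 2 C/EBP matches and Ltf and Lcn2 hold 1 each. A match describes the letters only and does not show that a factor binds there.

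Total counts per library lay between 59435258 and 64653956. Levels are given as CPM, counts scaled to a common library total as adjusted by edgeR's trimmed mean of M values (TMM), and 3 counts correspond to 0.0440 to 0.0539 CPM. Piezo1 itself held 17.0, 7.02 and 24.3 CPM in control replicates 1 to 3 and 4.28, 7.99 and 9.46 CPM in KO replicates 1 to 3, so the library labelled control replicate 2 lay below 2 libraries labelled KO. The list for the labelled cell type had 19 genes, 16 of them markers of LT-HSCs, all of which were counted in every library and summed to between 1473 CPM (control replicate 3) and 2023 CPM (control replicate 2). The other 3 genes, Cd48, Flt3 and Cd34, are usually low or absent in LT-HSCs and held 12.2 to 55.0, 5.30 to 11.7 and 73.4 to 175 CPM. Of the 19, 2 were higher in KO (Kit and Vwf) and 2 lower (Ly6a and Procr) by edgeR's unadjusted p under 0.05. Over all tested genes 5.44% were higher and 5.59% lower. None of the 19 passed by edgeR's adjusted p. Ly6a, the Sca-1 gene, held 324, 373 and 284 CPM in controls and 89.2, 206 and 72.8 CPM in KO, with an edgeR adjusted p = 0.297. Its groups did not overlap, a pattern with KO lower that 8.76% of all tested genes had. Procr, the EPCR gene, held 67.1, 56.5 and 22.6 CPM in controls and 9.68, 26.7 and 4.99 CPM in KO.

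The granule genes set control replicate 3 apart from the other libraries of both groups. Its 34 members summed to 14959 CPM, against 964 and 887 CPM in control replicates 1 and 2 and 543, 1245 and 1948 CPM in KO replicates 1 to 3. Every member was counted in control replicate 3, while 12 and 8 members had 0 counts in control replicates 1 and 2 and 17, 9 and 7 in KO replicates 1 to 3. Control replicate 3 was the highest library for 25 of 34 members, and in 15 of them it was at least 5 times the next library. Among the 26 members that passed edgeR's filter on low counts, 18 were highest there, where 18.3% of all 16022 tested genes were. By at least 5 times the next library it was 11 of 26, where 0.256% of all tested genes were. The map of member levels shows this as a bright column for the secondary granule genes and for S100a8 and S100a9.

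**Figure D1:**
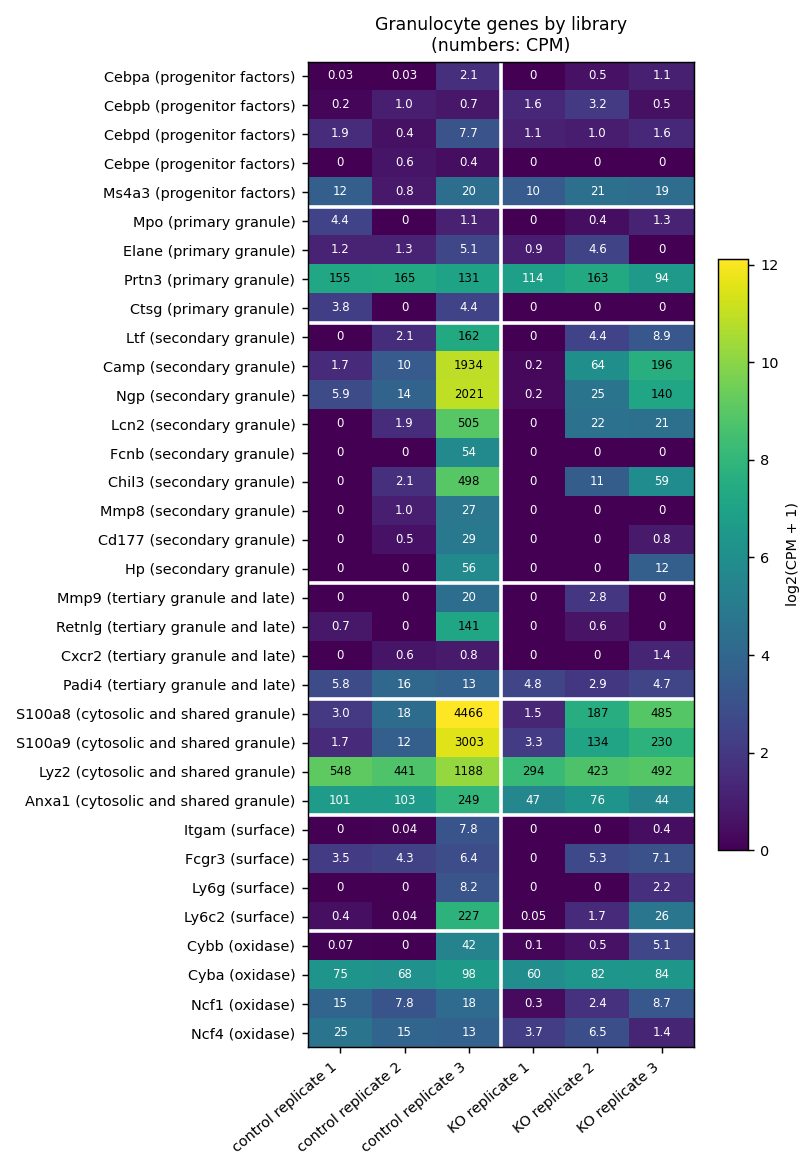
CPM of the 34 members (rows, by class) in the 6 libraries (columns), coloured by log2(CPM + 1), with the CPM printed in each cell. Control replicate 3 is bright from Ltf to Hp and at S100a8 and S100a9, while Prtn3, Lyz2 and Cyba are present in all 6 libraries.

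Of the progenitor factors, none differed between the groups beyond the spread of the libraries. Cebpa, the C/EBP alpha gene, held 0.0330, 0.0293 and 2.12 CPM in controls and 0, 0.531 and 1.07 CPM in KO libraries. At most 3 counts were found in 3 of these libraries, and the highest level was again in control replicate 3. Cebpd, a C/EBP gene of later granulocyte stages, held 1.90, 0.440 and 7.66 CPM in controls and 1.14, 0.980 and 1.57 CPM in KO. Cebpb, the C/EBP gene of emergency granulopoiesis, went another way, with 0.165, 0.996 and 0.737 CPM in controls and 1.61, 3.21 and 0.481 CPM in KO. Control replicate 3 was thus not its highest library. Cebpe, the C/EBP epsilon gene, had counts only in control replicates 2 and 3, at 0.601 and 0.377 CPM, and was too low to be tested.

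Ms4a3, a membrane protein gene that marks granulocyte-monocyte progenitors, held 11.6, 0.791 and 20.1 CPM in controls and 10.2, 21.4 and 19.1 CPM in KO. Control replicate 2 was low, and the other 5 libraries lay between 10.2 and 21.4 CPM in both groups. On the log2 scale KO exceeded control by 0.64 (SE 0.94), and the edgeR quasi-likelihood adjusted p = 0.877. Without control replicate 2 the difference was 0.07, with an edgeR adjusted p = 0.972, and without control replicate 3 it was 1.45, with an edgeR adjusted p = 0.571.

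Among the 4 primary granule genes, Elane and Ctsg were highest in control replicate 3 and Prtn3 and Mpo were not, and none was there at least 5 times the next library. Prtn3, the proteinase 3 gene, held 155, 165 and 131 CPM in controls and 114, 163 and 94.1 CPM in KO libraries. It was present in all 6 libraries at similar levels, and control replicate 3 was the lowest of the controls. Its log2 fold change was -0.28 (SE 0.23) with an edgeR adjusted p = 0.740. The other 3 genes were near or at 0 in most libraries. Elane, the neutrophil elastase gene, lies next to Prtn3 at chr10:79886247-79888215 and held 1.24, 1.26 and 5.07 CPM in controls and 0.922, 4.57 and 0 CPM in KO, so that control replicate 3 and KO replicate 2 were its high libraries. Mpo, the myeloperoxidase gene, was highest in control replicate 1, with 4.37, 0 and 1.13 CPM in controls and 0, 0.382 and 1.27 CPM in KO.

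Ctsg, the cathepsin G gene, held 3.81, 0 and 4.42 CPM in controls and had 0 counts in all 3 KO libraries. Its control mean of 2.74 ± 2.40 CPM (SD, n = 3) was at least 55.5-fold higher than 3 counts in each KO library would give, a bound that covers counting error only. The gene was too sparse to be tested, and control replicate 2 had 0 counts as well. The gene of Prtn3 overlaps Plppr3 on the opposite strand in GENCODE vM21, and the strand of the libraries is not stated. Plppr3 held 1.67 to 9.06 CPM.

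All 9 secondary granule genes were highest in control replicate 3, and KO replicate 3 was the next library for most of them. Camp, the cathelicidin gene, held 1.68, 10.3 and 1934 CPM in controls and 0.184, 64.4 and 196 CPM in KO libraries. Ngp, the neutrophilic granule protein gene, held 5.93, 13.5 and 2021 CPM in controls and 0.218, 24.7 and 140 CPM in KO. Lcn2, the iron-scavenging protein lipocalin 2, held 0, 1.90 and 505 CPM in controls and 0, 22.0 and 21.4 CPM in KO. The groups overlapped in each of these genes, with 1 control library far above every KO library and the other control libraries below KO replicates 2 and 3.

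Chil3, a chitinase-like lectin gene, held 0, 2.07 and 498 CPM in controls and 0, 11.1 and 59.3 CPM in KO. Ltf, the lactoferrin gene, held 0, 2.05 and 162 CPM in controls and 0, 4.37 and 8.92 CPM in KO. The order of the libraries was the same as for Camp and Ngp except that control replicate 1 and KO replicate 1 were both at 0. The remaining genes of the class, Fcnb (ficolin B), Mmp8 (neutrophil collagenase), Cd177 (a surface glycoprotein stored in the granule) and Hp (haptoglobin), held 27.2 to 55.6 CPM in control replicate 3. In the other libraries they lay between 0 and 11.9 CPM, the highest being Hp in KO replicate 3. Fcnb was counted in control replicate 3 alone. There it was at least 1129-fold higher than 3 counts in KO replicate 3. Camp, Ngp and Ltf lie on chromosome 9, at chr9:109847379-109849617, chr9:110419747-110423012 and chr9:111019271-111042767 in GENCODE vM21.

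The tertiary granule and late genes split. Retnlg, a resistin-like protein gene of mature neutrophils, held 0.726, 0 and 141 CPM in controls and 0, 0.565 and 0 CPM in KO. Mmp9, the gelatinase B gene that defines the tertiary granule, held 20.0 CPM in control replicate 3, 2.76 CPM in KO replicate 2 and 0 in the other 4 libraries. These genes were highest in control replicate 3, but not Cxcr2 and Padi4. Cxcr2, the chemokine receptor of circulating neutrophils, stayed between 0 and 1.39 CPM in all 6 libraries. Padi4, an arginine deiminase gene that acts on histones, held 5.79, 15.8 and 13.1 CPM in controls and 4.80, 2.87 and 4.73 CPM in KO. All 3 KO libraries lay below all 3 control libraries, with a log2 fold change of -1.48 (SE 0.55), an unadjusted p = 0.0293 and an edgeR adjusted p = 0.397.

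S100a8 and S100a9, which encode the subunits of calprotectin, the most abundant cytosolic protein of neutrophils, had the highest member levels in control replicate 3. S100a8 held 3.02, 18.5 and 4466 CPM in controls and 1.46, 187 and 485 CPM in KO libraries. S100a9 held 1.72, 11.6 and 3003 CPM in controls and 3.27, 134 and 230 CPM in KO. Control replicate 3, KO replicate 3, KO replicate 2 and control replicate 2 followed each other in this order, as in Camp, Ngp, Chil3 and Ltf. S100a8 lies at chr3:90668978-90670035 and S100a9 at chr3:90692632-90695721.

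Lyz2, the lysozyme gene of neutrophils and macrophages, was high in every library, with 548, 441 and 1188 CPM in controls and 294, 423 and 492 CPM in KO. The excess of control replicate 3 over the next library was 2.17-fold, compared with 9.21-fold for S100a8. Lyz1, a close copy of Lyz2, held 0.402 to 4.35 CPM. Anxa1, the annexin A1 gene of a protein that limits inflammation, held 101, 103 and 249 CPM in controls and 47.1, 75.8 and 44.3 CPM in KO. The groups did not overlap. Its log2 fold change was -1.44 (SE 0.41) with an unadjusted p = 0.00963 and an edgeR adjusted p = 0.310. Without control replicate 3 the log2 fold change of Anxa1 was -0.87 and the edgeR adjusted p = 0.238.

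Among the surface genes, Ly6c2, the Ly6C antigen gene of monocytes and granulocytes, held 0.429, 0.0440 and 227 CPM in controls and 0.0503, 1.73 and 25.7 CPM in KO. Ly6g, the antigen gene by which mature mouse neutrophils are recognised, was counted only in control replicate 3 (8.25 CPM) and KO replicate 3 (2.18 CPM). Itgam, the integrin subunit CD11b, held 7.80 CPM in control replicate 3 and 0 to 0.385 CPM elsewhere. These genes had their highest level in control replicate 3. Fcgr3, an IgG receptor gene, held 3.45, 4.28 and 6.40 CPM in controls and 0, 5.33 and 7.06 CPM in KO and did not follow them. Ly6c1, a close copy of Ly6c2, held 9.11 CPM in control replicate 3 and 0.577 to 5.30 CPM in the other libraries.

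The NADPH oxidase makes superoxide in the phagocyte. Its catalytic subunit gene Cybb held 0.0660, 0 and 41.7 CPM in controls and 0.134, 0.515 and 5.05 CPM in KO. Control replicate 3 was highest and KO replicate 3 next, as in Camp and Ngp, but control replicate 2 was at 0. Cyba, the partner of Cybb in that membrane complex, was even across libraries, with 75.2, 68.4 and 97.6 CPM in controls and 60.1, 81.8 and 84.5 CPM in KO. The cytosolic subunits differed from both. Ncf4, the p40phox gene, held 24.7, 14.7 and 13.3 CPM in controls and 3.66, 6.48 and 1.41 CPM in KO, with no overlap between the groups. Its log2 fold change was -2.19 (SE 0.63), the unadjusted p = 0.00951 and the edgeR adjusted p = 0.310. Ncf1, the p47phox gene, held 14.6, 7.78 and 18.0 CPM in controls and 0.285, 2.36 and 8.69 CPM in KO, and the groups overlapped. Ncf1 overlaps Gtf2ird2 on the opposite strand in GENCODE vM21, and Gtf2ird2 held 10.3 to 25.6 CPM.

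Summed by class, the secondary granule genes held 7.61, 31.4 and 5286 CPM in control replicates 1 to 3 and 0.402, 127 and 438 CPM in KO replicates 1 to 3. The primary granule genes held 164, 166 and 142 CPM in controls and 115, 168 and 95.4 CPM in KO, nearly all of it Prtn3. The secondary sum was thus 37.2 times the primary sum in control replicate 3 and 4.59 times in KO replicate 3. In control replicates 1 and 2 and KO replicates 1 and 2 it was 0.0464, 0.189, 0.00350 and 0.753 times the primary sum. The ratio is used to compare libraries and not genes, since counts are not divided by length. Because the primary sum is nearly all Prtn3, the ratio in effect sets the secondary granule genes against Prtn3. Of the other primary granule genes, Elane and Ctsg were highest in control replicate 3, as the secondary granule genes were, and Mpo was not. The plot of class sums shows both classes side by side.

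**Figure D2:**
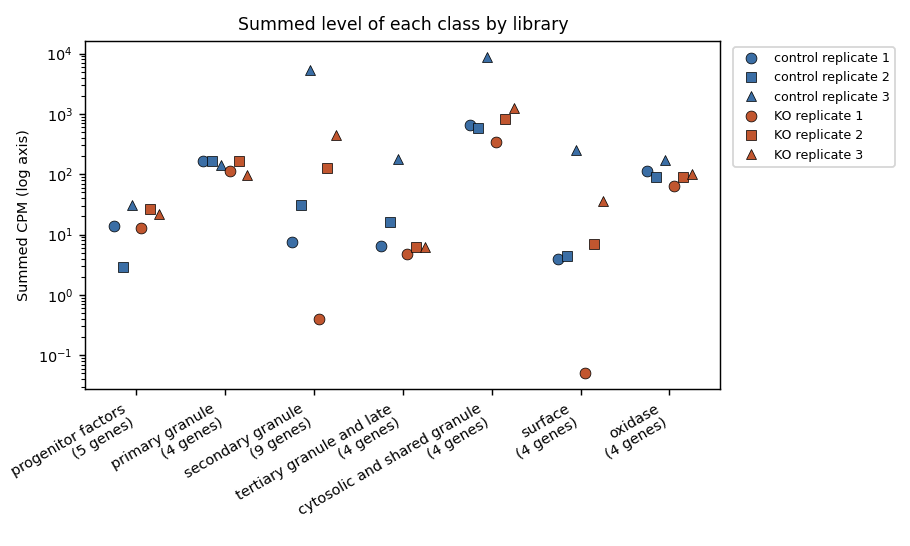
Summed CPM (log axis) of each class of members in each library, with circles, squares and triangles for replicates 1, 2 and 3, control in blue and KO in orange. The secondary granule sums spread from 0.402 to 5286 CPM, while the primary granule sums, nearly all Prtn3, stay between 95.4 and 168 CPM.

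Levels of different genes were compared only per kilobase of exon (CPM per kb, exon length from GENCODE vM21). In control replicate 3 the order was S100a8 (6435 CPM per kb), S100a9 (5753), Camp (2552), Ngp (1654), Lyz2 (902), Chil3 (305), Retnlg (238) and Lcn2 (192). Prtn3 stood at 75.9 CPM per kb there, and Elane, Ctsg and Mpo at 5.15, 4.28 and 0.331. In KO replicate 3 the order began with S100a8 (699 CPM per kb), S100a9 (440), Lyz2 (374) and Camp (258). Control replicates 1 and 2 and KO replicate 1 had another order, with Lyz2 first (223 to 417 CPM per kb) and Prtn3 next (65.9 to 95.3). KO replicate 2 lay between, with Lyz2 at 321, S100a8 at 269 and S100a9 at 256 CPM per kb.

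The 15 members at least 5-fold higher in control replicate 3 than in any other library were Ltf, Camp, Ngp, Lcn2, Fcnb, Chil3, Mmp8, Cd177, Mmp9, Retnlg, S100a8, S100a9, Itgam, Ly6c2 and Cybb. Hp (4.69-fold), Cebpd (4.03-fold) and Ly6g (3.78-fold) fell just short of this limit, which was chosen after the values were seen. KO replicate 3 was the next highest library for 10 of the 15 and KO replicate 2 for 2. In KO replicate 3 the 11 genes that were counted stood at 2.86% to 12.1% of their level in control replicate 3, with a median of 7.64%, or 5.51% over all 15 with the genes at 0 included. The 5-fold limit itself caps these percentages, and Hp and Ly6g, just outside it, stood at 21.3% and 26.4%. S100a8 stood at 10.9% and Chil3 at 11.9%. Fcnb, Mmp8, Mmp9 and Retnlg had 0 counts in KO replicate 3. At 7.64%, the median of the counted genes alone, they would have held 259, 130, 95 and 674 counts. That median leaves out the genes at 0, and the cause of their absence was not tested. In KO replicate 2 the 11 counted genes spread more widely, from 0.399% for Retnlg to 13.8% for Mmp9, with a median of 2.70%.

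**Figure D3:**
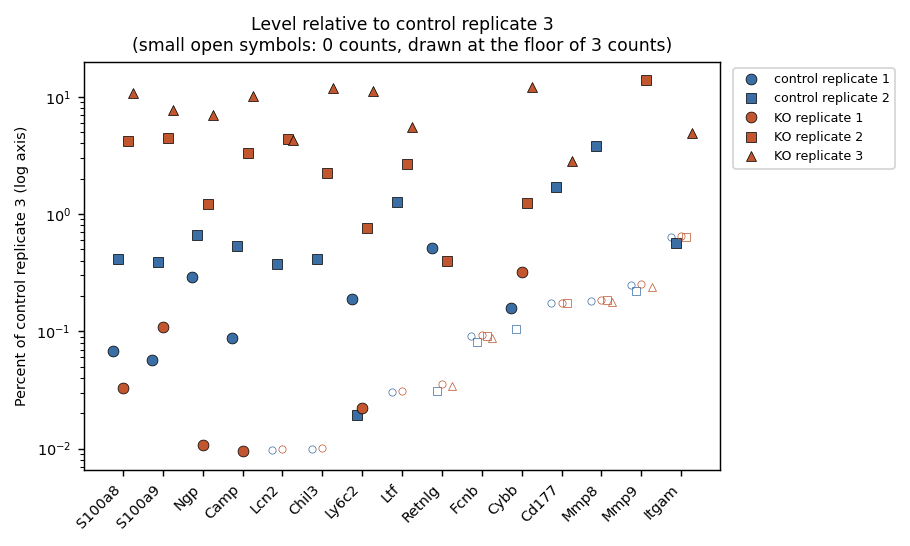
Level of the 15 genes in the other 5 libraries as a percentage of the level in control replicate 3 (log axis), ordered by their CPM in control replicate 3, with small open symbols for 0 counts drawn at the floor of 3 counts. KO replicate 3 (orange triangles) lies between 2.86% and 12.1% where counted, while Retnlg, Fcnb, Mmp8 and Mmp9 are at 0 there.

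Across all genes the comparison of KO with control in edgeR gave 0 higher and 0 lower genes at an adjusted p under 0.05 (0.0% of 16022 tested in each direction). At an unadjusted p under 0.05 it gave 871 higher (5.44%) and 896 lower genes (5.59%), and DESeq2 called 244 higher (1.64%) and 286 lower (1.92%) by adjusted p. Of the 34 members, 26 could be tested, and Cebpe, Ctsg, Fcnb, Mmp8, Hp, Mmp9, Itgam and Ly6g were too sparse. No member passed the adjusted threshold in edgeR. At an unadjusted p under 0.05, 4 of 26 were lower, namely Ncf4, Anxa1, Padi4 and Retnlg, and 0 were higher. Retnlg had a log2 fold change of -7.96 (SE 3.10), an unadjusted p = 0.0361 and an adjusted p = 0.413 in edgeR, and without control replicate 3 its log2 fold change was -0.94 with an edgeR adjusted p = 0.929.

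The median log2 fold change of the 26 tested members was -1.78, beside 0.03 over all tested genes, and 24 of them were negative, where 47.8% of all tested genes were. This direction rested on 1 library. Without control replicate 3 the median of the tested members was 0.60, 18 of the same 26 members were positive, and 16 of the 24 negative values had turned positive. S100a8 went from -2.74 (SE 2.46) to 4.38 (SE 2.11), Camp from -2.90 (SE 2.50) to 3.85 (SE 2.21), and Cybb from -2.87 (SE 2.52) to 5.78 (SE 2.64) on the log2 scale. In neither fit did any of these pass the threshold in edgeR, and the adjusted p-values without control replicate 3 were 0.363, 0.451 and 0.344. Without control replicate 3 and KO replicate 3 together, an alternative chosen after seeing the data, the median was 0.17.

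**Figure D4:**
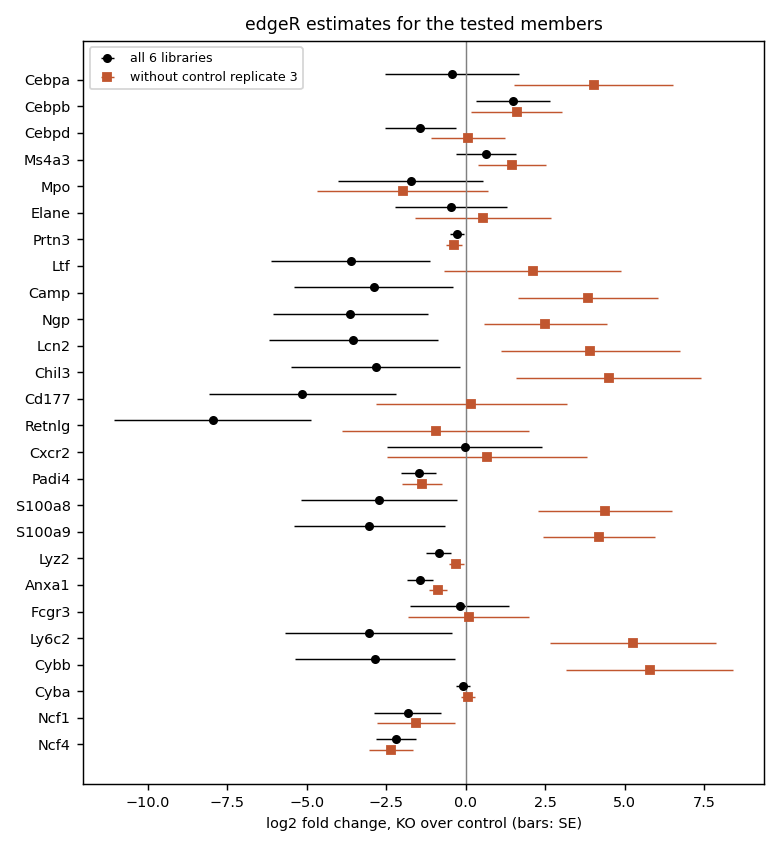
edgeR log2 fold change of KO over control with its SE for the 26 tested members, from all 6 libraries (black circles) and without control replicate 3 (orange squares). S100a8, S100a9, Camp, Ngp, Lcn2, Chil3, Ltf, Ly6c2 and Cybb lie left of 0 with all libraries and right of 0 without control replicate 3. Ncf4, Anxa1 and Padi4 are among the 8 members that stay left of 0 in both.

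Of the 26 tested members, 3 (Ncf4, Anxa1 and Padi4) had groups that did not overlap with KO lower, where 8.76% of all tested genes did. The 2 shares are close, so the count does not set the members apart from other genes. With KO higher, 0 members had no overlap, where 10.7% of all tested genes did. Without control replicate 3 their log2 fold changes were -2.36 for Ncf4, -0.87 for Anxa1 and -1.38 for Padi4. With all KO libraries below all controls, leaving out a control could hardly turn their direction, so the kept sign adds no support. At an unadjusted p under 0.05 in that edgeR fit, Ncf4 and Anxa1 were lower, where 7.62% of all tested genes were, and 0 of the same 26 members were higher, where 7.86% were. DESeq2 called Ncf4 (adjusted p = 0.0249) and Anxa1 (adjusted p = 0.00834) lower, beside 1.92% of all genes given an adjusted p. It gave no adjusted p to 11 of the 26 members, so the 2 are to be set against the rest. DESeq2 gave no p-value to 10 members, which it marked as holding an extreme count, among them Camp, Ngp, Ltf, Lcn2, Chil3 and S100a9.

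Other genes of the granulocyte program were taken from lists by role. Their counts by unadjusted p are to be read beside the shares of all tested genes in edgeR, 5.44% higher and 5.59% lower. Of 14 regulators and cytokine receptors, 13 were tested, and 2 were higher and 0 lower by unadjusted p (under 0.05), with a median log2 fold change of -0.01. Spi1, the PU.1 gene, held 37.4, 35.5 and 17.6 CPM in controls and 14.8, 20.8 and 25.2 CPM in KO. Csf3r, the receptor gene of the granulocyte growth factor G-CSF, held 6.26, 20.1 and 17.4 CPM in controls and 10.1, 19.3 and 13.9 CPM in KO. Neither had its highest level in control replicate 3. Gfi1, a repressor gene needed for neutrophil development, stayed between 0.402 and 3.52 CPM, and Irf8, the factor of the monocyte branch, between 0 and 6.29 CPM with 0 counts in control replicates 1 and 3. Runx1, a transcription factor gene of stem and progenitor cells, and Kit, the stem cell factor receptor gene, lay 0.82 (SE 0.29) and 0.79 (SE 0.29) higher on the log2 scale, with edgeR adjusted p-values of 0.389 and 0.398. Il3ra held 0, 1.49 and 0 CPM in controls and 3.61, 4.04 and 4.70 CPM in KO, with an edgeR adjusted p = 0.667.

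Of 10 genes of granule biogenesis and protease control, all were tested, with 2 higher and 2 lower by unadjusted p and a median of -0.26. Nkg7, a granule membrane gene of cytotoxic cells, and Cst7, a cystatin gene, averaged 248 ± 2.13 and 27.6 ± 12.0 CPM in KO libraries and 159 ± 42.6 and 11.0 ± 4.56 CPM in controls (SD, n = 3 each). Cd63, a tetraspanin of granule membranes, averaged 266 ± 29.3 CPM in KO libraries and 371 ± 32.1 CPM in controls. Serpinb1a, an inhibitor of neutrophil serine proteases, averaged 93.2 ± 6.09 and 136 ± 35.4 CPM. None of these 4 passed the threshold, with edgeR adjusted p-values between 0.360 and 0.430, and none was highest in control replicate 3. Of the 10 genes, 2 were highest there, namely Slpi and Prss57. Slpi held 34.9 CPM in control replicate 3 and 0 to 7.73 CPM elsewhere, with an edgeR adjusted p = 0.861. Prss57 was there only 1.09-fold above the next library, and its groups did not overlap, with KO lower. It held 6.56, 6.66 and 0 CPM in KO libraries and at least 12.2 CPM in controls, with an edgeR adjusted p = 0.749. Srgn, the proteoglycan core to which granule proteases bind, was even, between 1037 and 1383 CPM.

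Of 22 listed genes of other granule and secreted neutrophil proteins, 21 had a row, 14 were highest in control replicate 3, 9 were tested, and 0 were higher and 2 lower by unadjusted p. Pglyrp1, a peptidoglycan-binding granule protein gene, held 15.0, 6.51 and 83.4 CPM in controls and 5.65, 6.08 and 7.14 CPM in KO. Ifitm6, a membrane protein gene of mature myeloid cells, held 0, 0 and 92.5 CPM in controls and 0, 0.199 and 5.40 CPM in KO. Serpina3g, a serine protease inhibitor gene, had another order, with 1239, 1020 and 417 CPM in controls and 328, 542 and 395 CPM in KO. G0s2, an inhibitor of fat breakdown abundant in neutrophils, was low, with 1.72, 1.32 and 2.23 CPM in controls and 0.201, 0.216 and 0 CPM in KO. Its edgeR adjusted p was 0.460. Olfm4, Stfa2 and Stfa3 had 0 counts in all 6 libraries.

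Of 18 surface receptor and adhesion genes of neutrophils, 14 were tested, and 0 were higher and 1 lower by unadjusted p, with a median log2 fold change of -0.30. That gene was Ptafr, the receptor of platelet-activating factor, with 10.9, 16.6 and 8.02 CPM in controls and 5.62, 5.31 and 3.32 CPM in KO and an edgeR adjusted p = 0.397. Tyrobp, a signalling adaptor of myeloid receptors, held 70.7 CPM in control replicate 3 and 4.90 to 23.6 CPM in the other libraries. Fpr2, a formyl peptide receptor gene, held 14.8 CPM there and 0 to 0.834 CPM elsewhere. Of the 18 genes, 10 were highest in control replicate 3, and others were not. Cxcr4 held 1.93, 3.88 and 4.21 CPM in controls and 7.58, 6.74 and 8.79 CPM in KO (edgeR adjusted p = 0.494). Clec4d held 11.2, 1.96 and 25.5 CPM in controls and 33.3, 20.6 and 38.1 CPM in KO (edgeR adjusted p = 0.627). Of 5 oxidase partners, 1 was lower and 0 higher by unadjusted p. It was Rac2, the small GTPase gene of the oxidase in blood cells, at 459, 359 and 297 CPM in controls and 219, 225 and 251 CPM in KO, with a log2 fold change of -0.68 (SE 0.20) and an edgeR adjusted p = 0.310.

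With every listed gene included, none of the summed marker lists of other cell types was highest in control replicate 3. The 14 monocyte and macrophage markers summed to 64.2 CPM there, inside the range of 31.7 to 96.4 CPM over all libraries, and 3 of the 14 were highest there, namely Ms4a6c (39.1 CPM, 11.1 to 30.2 CPM elsewhere), Cx3cr1 (1.71 CPM) and F13a1 (0.755 CPM). Csf1r, the defining receptor gene, held 0.126 CPM in it and 0 to 3.47 CPM elsewhere. Fcgr1 was at 0 there and in KO replicate 1, and Vcan was at 0 in 5 of 6 libraries. Of the 10 eosinophil, basophil and mast cell markers 6 were at 0 in every library, Epx and Mcpt8 among them, and the sum was 3.94 to 27.8 CPM. The B lineage sum was 33.7 to 89.1 CPM, mostly Cd79b. The T and NK sum of 131 to 271 CPM came mostly from Nkg7, and Cd8a and Ncr1 were at 0 in every library. The T cell genes Cd3d, Trbc1 and Cd3g held 8.11, 7.62 and 4.50 CPM in KO replicate 2 and 0 to 0.593 CPM in the other libraries. Cd3e and Trac held only 0.116 and 0.432 CPM in KO replicate 2 and 0 elsewhere. Cd4 held 0.282 CPM in KO replicate 2, below 2.62 and 2.21 CPM in control replicates 2 and 3, and Klrb1c was at 0 in KO replicate 2. The dendritic sum was 28.4 to 85.1 CPM, mostly Bst2, with Siglech and Xcr1 at 0 in every library.

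The erythroid markers, globins included, summed to 3663, 2739 and 7927 CPM in controls and 26616, 10179 and 8389 CPM in KO libraries, in another order than the granule genes. KO replicate 1 had the highest erythroid and the lowest granule sum. Without the 4 globin genes, a sum added after seeing the data, the erythroid markers held 3381, 1499 and 4097 CPM in controls and 2189, 1006 and 1308 CPM in KO, and control replicate 3 was highest. Of the 12 erythroid markers 5 were highest there, namely Klf1, Car1, Epor, Ermap and Tfrc, with Car1, a carbonic anhydrase gene, at 3524 CPM. The megakaryocyte and platelet markers summed to 1281, 1133 and 970 CPM in controls and 1891, 2790 and 2438 CPM in KO, with no overlap and control replicate 3 lowest. Of 9 tested genes of that list 6 were higher and 0 lower by unadjusted p, where 5.44% and 5.59% of all tested genes were. Pf4, the platelet factor 4 gene, and Itga2b, an integrin gene, each had an edgeR adjusted p = 0.255. The part of these transcripts, and of the stem cell markers that were lowest in control replicate 3, in the member values was not tested.

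**Figure D5:**
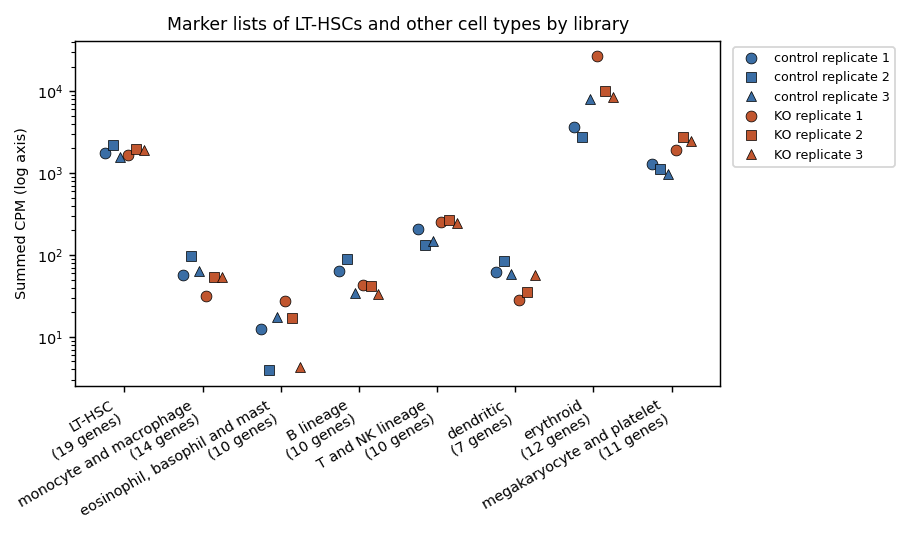
Summed CPM (log axis) of marker lists of LT-HSCs and other cell types in each library, with symbols for replicates 1, 2 and 3 and control in blue and KO in orange. Control replicate 3 (blue triangles) lies inside the range of the other libraries for monocyte and macrophage markers, and KO replicate 1 (orange circles) is highest for erythroid markers at 26616 CPM.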

How the data were processed

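Each library has 1 deposited table of raw gene counts. Per the labels' protocols, TRIZOL extraction was followed by TruSeq RNA library preparation, with no strand stated. Build mm10 and the tools featureCounts 1.6.4, HISAT2 2.1, cutadapt 1.16.5 and bcl2fastq 2.19 are listed in the submitters' processing notes, beside DESeq2, without roles or settings. The sources used here do not give how reads from similar or overlapping genes were assigned, and 2046 of 47561 rows carry identifiers of an assembler's kind. Of the members, 10 overlap another gene in GENCODE vM21, so reads may have moved between them.

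The members, their classes and the other gene lists were chosen with earlier results of these data known. Values were given library by library for up to 4 members of each class with the highest mean CPM, for members with an unadjusted p under 0.05, and for the remaining members as ranges or where a class was small. Of each other list, up to 4 genes with the smallest p were named, and Spi1, Gfi1, Irf8 and Csf3r always. Tyrobp, Fpr2, Ifitm6, Srgn, Slpi, Prss57, the single marker genes and the overlapping or copied genes were named after their values were seen.

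The fit used edgeR 4.0.16 under R 4.3.3 (filterByExpr, TMM, quasi-likelihood F test over all 6 libraries, Benjamini-Hochberg adjustment over all genes tested, threshold 0.05). The SE is the absolute log2 fold change divided by the square root of F. The common biological coefficient of variation was 0.755. Floors of 3 counts cover counting error only. Alternatives used limma 3.58.1 and DESeq2 1.42.0. The steps were tested on simulated data. Libraries of a group differed by more than sampling noise (chi-square per gene at least 132).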

Additional observations from a re-analysis of the deposited data

How the results depend on the processing

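The counts of all genes past the adjusted threshold were 0 higher and 0 lower in edgeR, and DESeq2 gave 244 higher and 286 lower. With a filter of 5 CPM in 3 libraries, 1 gene was lower, and with 1 library left out there were 0 to 1 higher and 0 to 0 lower. The members lower at an unadjusted p under 0.05 in edgeR numbered 4 of 26 tested, and 7 of 34 with no filter. Over all genes 896 of 16022 were lower, and 1051 of 23084 with no filter. With 1 library left out 2 to 6 members were lower. Without control replicate 1 it was 6 of 32, where 573 of all 17121 tested genes were lower. Without control replicate 3 it was 2 of 26, where 1299 of all 17038 tested genes were. Without control replicate 3 and KO replicate 3 together, 1 of 22 tested members was lower by unadjusted p. In that fit 1 gene of all genes was lower by adjusted p. The members higher numbered 0 under every alternative run. The median log2 fold change of tested members, -1.78, was -2.49 with no filter, -0.78 with limma-voom and -0.91 with the replicate block. It ranged from -3.62 (without KO replicate 3) to 0.60 (without control replicate 3), and was 0.17 without both. Which members pass the filter also changes between these settings.

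Of the 26 tested members, 17 changed sign under 1 or more alternatives and 9 under none, and 2 (Anxa1 and Ncf4, in DESeq2) passed the adjusted threshold under any. With 1 library left out the log2 fold changes ranged from -1.45 to 4.02 for Cebpa, -1.97 to 0.07 for Cebpd, -2.45 to 0.55 for Elane, -4.64 to 2.10 for Ltf, -4.33 to 3.85 for Camp, -5.77 to 2.50 for Ngp and -4.13 to 3.92 for Lcn2. The ranges were -4.91 to 4.49 for Chil3, -12.2 to 0.17 for Cd177, -7.86 to 0.66 for Cxcr2, -3.99 to 4.38 for S100a8, -3.87 to 4.19 for S100a9, -0.83 to 0.38 for Fcgr3, -6.41 to 5.27 for Ly6c2, -5.41 to 5.78 for Cybb and -0.22 to 0.07 for Cyba. Without control replicate 3 and KO replicate 3 together, Elane, Ltf, Camp, Ngp, Lcn2, Chil3, S100a8, S100a9 and Ly6c2 stood at 1.14, 1.09, 2.43, 0.36, 3.53, 2.42, 3.13, 3.36 and 1.90. In limma-voom Cebpa, Chil3, S100a9, Ly6c2 and Cybb stood at 0.33, 0.11, 0.44, 0.16 and 1.64.

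Replicate numbers are shared between the groups, but same-numbered libraries did not deviate together: the correlations of their deviations from the group means were 0.038, 0.016 and 0.033. Each library correlated best with its own number only by these small margins, a hint from the data and not the design. With the replicate block, Mpo, S100a9 and Cybb had log2 fold changes of 0.03, 0.52 and 0.80, and 0 genes passed in either direction. The block also gave 4 lower members of 26 by unadjusted p, where 762 of all 16022 tested genes were lower. Of these members Anxa1 and Ncf4 were shared, with Cd177 and Lyz2 in place of Padi4 and Retnlg. As a mean of log2(CPM + 1) in place of a sum, the secondary over primary level of KO replicate 1 was -1.89 in place of -8.16 on the log2 scale. All 6 libraries kept their sign, but the lowest was then control replicate 1, at -2.82 in place of -4.43, and control replicate 2 stood at -0.61 in place of -2.41. With 3 libraries a group and 1 library holding most of the granule transcripts, the spread limits every comparison of these genes. The cause of these changes was not tested.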

Other observations

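Some relatives of the members also had their highest level in control replicate 3. Chil4, a close copy of Chil3, held 7.06 CPM there and 0 in the other 5 libraries, and Chil1, another chitinase-like gene, held 6.24 CPM there, 3.90 CPM in KO replicate 3 and 0 elsewhere. S100a6, a calcium-binding protein gene of the same family as S100a8, held 104 CPM there and 43.5 to 73.2 CPM in the other libraries. Fcna, the ficolin A gene, did not follow Fcnb, with 1.73 CPM in control replicate 3 and 0 to 4.21 CPM elsewhere, and Retnla had 0 counts in all 6 libraries. Reads shared between such copies cannot be told apart in these tables.

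Among all 16022 tested genes, 41 were highest in control replicate 3 by at least 5 times the next library, compared with 9 to 33 genes for each of the other libraries. Of these 41, 11 were members of the granule list.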
